A study of Homo sapiens with 40 samples.

Results

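The response to antimycin A was measured in HEK293T cells, a human embryonic kidney-derived line, that were cut at SLC25A12 with a guide RNA and given a SLC25A12 cDNA carrying the substitution F137S. These cells are called F137S cells here. The 8 libraries were chosen by their labels, as 4 libraries of F137S cells with antimycin A at 40 nM for 6 h and 4 libraries of the same cells with vehicle, out of 40 libraries in the series. The other 32 libraries came from 4 further HEK293T lines, each with 4 antimycin and 4 vehicle libraries. They were F137S cells that also carry dMTS-DELE1, cells labelled as carrying SLC25A12-WT, SLC25A12 guide cells with an empty vector (KO vector cells) and unedited cells with an empty vector (WT vector cells). All lines but the WT vector cells have the genotype label SLC25A12 knockout, and the vehicle libraries have the treatment label Normal. The labels do not say whether a line is a clone, which promoter drives the cDNAs, or whether the 4 biological replicates of a group were separate cultures, so the p-values measure the spread between these libraries.

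SLC25A12 is a mitochondrial carrier that exchanges aspartate and glutamate across the inner membrane and serves the malate-aspartate shuttle. Antimycin A blocks complex III of the respiratory chain. In human cells, mitochondrial stress of this kind reaches the cytosol when the protease OMA1 cleaves DELE1. Cut DELE1 binds the kinase HRI, encoded by EIF2AK1, which phosphorylates the translation factor eIF2. General protein synthesis then slows while the transcription factor ATF4 is translated more. ATF4 switches on genes for amino acid synthesis and uptake, redox balance and stress, in what is called the integrated stress response (ISR). The study was designed to compare ISR genes across these 5 lines. RNA levels below are CPM (counts scaled to the library total) and differences are log2 fold changes of antimycin over vehicle.

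The 8 libraries of F137S cells held 30807119 to 31958598 counts each, and the 40 libraries 30730335 to 31965438. After a filter on low counts, 16739 of 28278 genes (59.2%) were tested. The deposited counts had 0 genes with the symbol prefix MT- of the mitochondrial genome, so those genes were not analysed here. All 10 markers fixed for HEK293 cells were tested, with summed levels of 913 to 934 CPM in antimycin and 887 to 902 CPM in vehicle libraries of F137S cells. Of 10 markers of differentiated kidney, 4 passed the filter and 2 were at 0 in all 8 libraries, with sums of 6.34 to 7.82 CPM in antimycin and 6.94 to 8.09 CPM in vehicle libraries. Of 10 markers of leukocytes, endothelium, fibroblasts, hepatocytes and red cells, 4 passed and 2 were at 0, with sums of 19.8 to 22.4 CPM in antimycin and 21 to 22.7 CPM in vehicle libraries. In bulk RNA, fewer cells of a kind and less RNA per cell cannot be told apart.

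SLC25A12 RNA was at the level of a strongly expressed cDNA. It stood at 1882, 1896, 1890 and 1963 CPM in the antimycin libraries of F137S cells and at 1858, 1867, 1860 and 1826 CPM in the vehicle libraries. The antimycin values all lay above the vehicle values, but by little, and the log2 difference of 0.04 ± 0.02 (SE) did not pass the test (edgeR quasi-likelihood test with Benjamini-Hochberg adjustment, adjusted p = 0.051, as for every adjusted p below). Without antimycin library 1, 2 or 3 or vehicle library 2 or 3 it passed, with a difference of at most 0.06 (adjusted p between 0.013 and 0.030), as it did with DESeq2's size factors (0.046), DESeq2's Wald test (0.013) and halved counts (0.017). KO vector cells held 2.75 ± 0.29 CPM with antimycin and 3.08 ± 0.23 CPM with vehicle (SD, n = 4 each). In the libraries labelled SLC25A12-WT the gene averaged 29.9 ± 1.3 CPM with antimycin and 38.9 ± 0.33 CPM with vehicle, close to the 30.6 ± 1.7 and 38.7 ± 1.8 CPM of WT vector cells. That is neither the level of an added cDNA, as in F137S cells, nor that of KO vector cells, so SLC25A12 RNA goes against the label of these libraries, and whether they are the line the label names is uncertain. Gene counts do not show which base stands at the substituted codon, so the substitution itself was not checked. SLC25A13, which encodes the related carrier, fell by 0.24 on the log2 scale (SE 0.03, adjusted p = 1e-11) in F137S cells.

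Antimycin A changed the RNA of about every other tested gene in F137S cells, most of them by less than 2-fold. At an adjusted p below 0.05, 8574 of 16739 genes (51.2%) were called, 4409 higher (26.3%) and 4165 lower (24.9%). Only 469 of them (2.80%) changed by at least 2-fold, 229 higher (1.37%) and 240 lower (1.43%). Among genes with a mean log2 CPM of at least 1 and no overlap between the groups, CHAC1 and TLCD1 rose most. TLCD1, a membrane protein of the TLC domain family, stood at 22, 20.2, 22.7 and 22.5 CPM with antimycin and at 7.74, 6.91, 6.34 and 8.0 CPM with vehicle, a log2 change of 1.59 ± 0.07 (adjusted p = 5.6e-31). The antimycin values lay far above the vehicle values in all 4 libraries. TNFRSF12A, the receptor for the cytokine TWEAK, rose by 1.31 ± 0.09. RGS2, a brake on G protein signalling, rose by 1.26 ± 0.08, and the angiotensin receptor gene AGTR1 by 1.31 ± 0.15. At the other end, CYP27B1, which makes the active form of vitamin D, was at 5.74, 5.44, 5.94 and 6.83 CPM with antimycin and at 16.4, 17, 16.2 and 14.9 CPM with vehicle. It fell by 1.43 on the log2 scale (SE 0.08, adjusted p = 4.1e-27), with no overlap. The receptor tyrosine kinase-like gene ROR1 fell by 1.33 (SE 0.10).

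The relay that leads to ATF4 changed little at the RNA level. Of 19 genes listed for it (the relay proteins, eIF2 kinases, eIF2 and eIF2B subunits, inner membrane proteases and OPA1), 4 rose, 6 fell and 9 did not pass, with a median log2 change of 0.00 against 0.02 over all tested genes. Of all tested genes, 26.3% rose and 24.9% fell. DELE1 rose by 0.15 ± 0.04 (adjusted p = 8.3e-04) and EIF2AK1 by 0.06 ± 0.02 (adjusted p = 0.018, and 0.081 with no filter on low counts), while OMA1 had a log2 difference of -0.09 ± 0.04 that did not pass (adjusted p = 0.076). PPP1R15B, which encodes a subunit of the phosphatase that removes the phosphate from eIF2, rose by 0.27 ± 0.02 (adjusted p = 6.0e-18). ATF4 itself was at 675, 681, 684 and 690 CPM with antimycin and at 649, 647, 645 and 651 CPM with vehicle. Its groups did not overlap, and the rise of 0.07 ± 0.02 passed (adjusted p = 1.8e-04). ATF4 protein and eIF2 phosphorylation were not measured in these files.

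Many genes downstream of ATF4 rose by more than ATF4 RNA. All 45 genes of a list of ISR targets passed the filter: 32 rose, 3 fell and 10 did not pass, against 26.3% of all tested genes that rose and 24.9% that fell. The list's median log2 change was 0.26, against 0.02 over all tested genes. In 33 of the 45 genes the 4 antimycin and 4 vehicle libraries did not overlap, as in 7285 of all 16739 tested genes (43.5%), and all 33 were called. Only 4 of the 45 rose by at least 2-fold, namely CHAC1, GDF15, ATF3 and ASNS.

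CHAC1, which encodes an enzyme that degrades glutathione, rose most in the list. Its level was 8.89, 8.99, 9.64 and 11.0 CPM with antimycin and 2.82, 3.80, 2.35 and 2.90 CPM with vehicle, from 288, 289, 302 and 355 counts and 89, 121, 74 and 92 counts. Every antimycin library lay over 2-fold above every vehicle library, and the log2 change was 1.70 ± 0.12 (adjusted p = 7.4e-19). The secreted stress hormone gene GDF15 had only 13, 11, 29 and 24 counts with antimycin and 4, 10, 8 and 4 counts with vehicle. Its rise of 1.53 ± 0.37 passed (adjusted p = 4.1e-04) but rests on few reads.

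Among the transcription factors under ATF4, ATF3 was at 57.7, 58.7, 61.2 and 60.8 CPM with antimycin and at 27.3, 23.0, 25.5 and 23.8 CPM with vehicle. The groups were far apart, and ATF3 rose by 1.26 ± 0.04 (adjusted p = 3.2e-40). DDIT3, which encodes the pro-apoptotic factor CHOP, was at 20.9, 20.8, 19.8 and 23.5 CPM with antimycin and at 13.5, 13.8, 13.1 and 13 CPM with vehicle, a rise of 0.67 ± 0.07 (adjusted p = 1.9e-14) without overlap. CEBPG, a partner of ATF4 on DNA, rose by 0.38 ± 0.03 and the repressor gene JDP2 by 0.60 ± 0.09. The stress-induced chromatin protein gene NUPR1 was low, at 2.93, 3.86, 2.49 and 4.00 CPM with antimycin and 1.68, 2.07, 2.03 and 2.46 CPM with vehicle. It rose by 0.69 ± 0.16 (adjusted p = 2.8e-04), with the lowest antimycin and highest vehicle library nearly touching. TRIB3, a pseudokinase that feeds back on ATF4, was at 26.4, 25.7, 28.4 and 29.7 CPM with antimycin and at 22.1, 25.5, 23.2 and 22.9 CPM with vehicle, a rise of only 0.23 ± 0.05 (adjusted p = 4.2e-05). ATF5, another factor translated under eIF2 phosphorylation, fell by 0.37 (SE 0.05, adjusted p = 2.5e-08), at 21.8, 20.1, 19.8 and 22.1 CPM with antimycin and 26.4, 27.5, 26.3 and 27.9 CPM with vehicle.

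SESN2 and DDIT4, list members whose products restrain mTORC1 signalling, both rose. SESN2, a leucine sensor, was at 161, 155, 170 and 169 CPM with antimycin and at 90.2, 94.3, 92.3 and 93.7 CPM with vehicle. The groups were well separated and the rise was 0.82 ± 0.03 (adjusted p = 8.4e-30). DDIT4 was at 94.4, 92.8, 92.1 and 96.1 CPM with antimycin and at 63.4, 59.3, 57.7 and 68.8 CPM with vehicle, a rise of 0.59 ± 0.04 (adjusted p = 2.0e-21) with no overlap.

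Amino acid genes of the list moved unevenly. PCK2, the mitochondrial phosphoenolpyruvate carboxykinase, was at 59.5, 53.6, 54.7 and 57.5 CPM with antimycin and at 30.8, 30.4, 31.7 and 33.1 CPM with vehicle, a rise of 0.84 ± 0.05 (adjusted p = 3.5e-26). CTH, which makes cysteine from cystathionine, was at 57.9, 58.9, 56.8 and 55.5 CPM with antimycin and at 39.4, 36.6, 38.7 and 37.0 CPM with vehicle, a rise of 0.59 ± 0.04 (adjusted p = 3.2e-22). Neither gene's groups overlapped. SLC6A9, a glycine transporter gene, was at 22.1, 18.9, 20.5 and 19.2 CPM with antimycin and at 12.1, 13.1, 12.8 and 12.1 CPM with vehicle, and rose by 0.69 ± 0.06 (adjusted p = 1.0e-16). ASNS, the asparagine synthetase gene, had 4.48, 3.14, 4.22 and 3.6 CPM with antimycin and 1.52, 1.51, 2.00 and 1.48 CPM with vehicle, a rise of 1.24 ± 0.15 (adjusted p = 2.1e-11). Its level is uncertain, because the counting may have split reads with the pseudogene ASNSP1, which rose by 0.97 ± 0.15. The serine synthesis genes PHGDH and PSAT1 rose by 0.21 ± 0.02 and 0.20 ± 0.02, and the alanine tRNA synthetase gene AARS1 by 0.36 ± 0.02.

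Some members did not rise. SLC7A11, the cystine importer gene, was at 73.6, 74.8, 69.7 and 68.1 CPM with antimycin and at 104, 97.9, 105 and 96.9 CPM with vehicle. Every antimycin library was lower, and the gene fell by 0.50 (SE 0.03, adjusted p = 3.1e-22). ALDH18A1, the first enzyme of proline synthesis, fell by 0.06 (SE 0.02, adjusted p = 0.0074), a call lost without antimycin library 2 or vehicle library 4 (adjusted p = 0.095 and 0.074). Among members that did not pass were the serine synthesis gene PSPH, with a log2 difference of 0.01 ± 0.04 (adjusted p = 0.75), the glycine tRNA synthetase gene GARS1, with 0.02 ± 0.02 (adjusted p = 0.42), and the cationic amino acid transporter gene SLC7A1, with -0.01 ± 0.02 (adjusted p = 0.62). The secreted glycoprotein gene STC2, with -0.02 ± 0.03 (adjusted p = 0.61), and the tRNA exporter gene XPOT, with -0.02 ± 0.02 (adjusted p = 0.33), did not pass either.

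**Figure D1:**
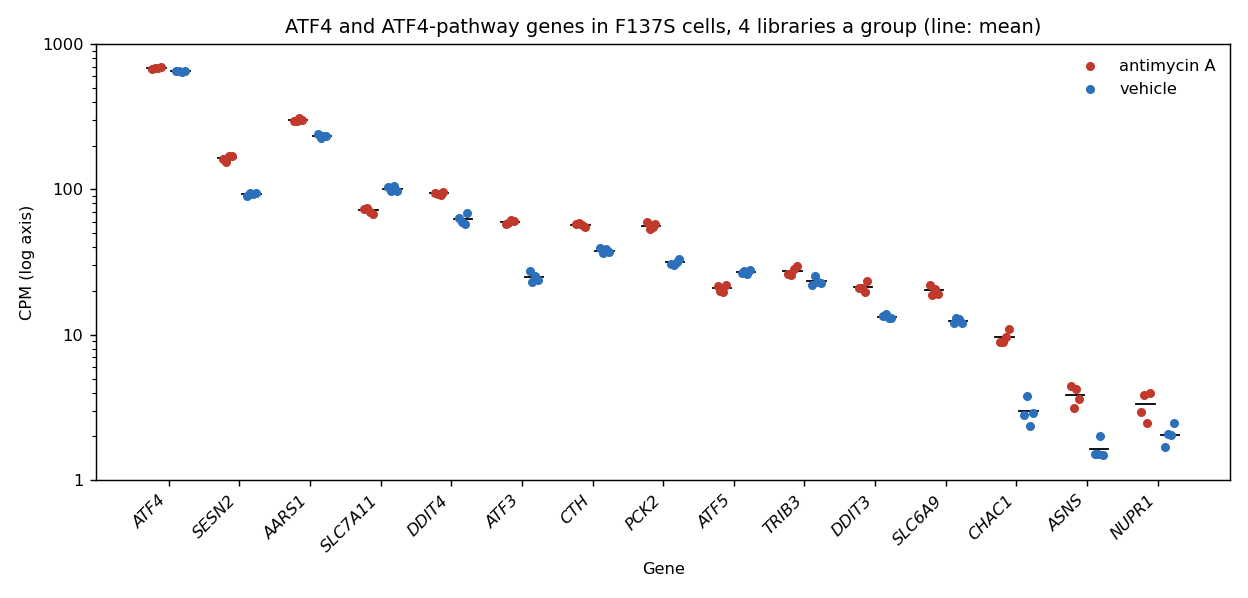
CPM (log axis) of ATF4 and 14 ATF4-pathway genes in each of the 4 antimycin (left of each pair) and 4 vehicle libraries (right) of F137S cells, with a line at each mean. CHAC1 shows the widest gap between the groups, ATF4 a narrow one (675 to 690 CPM with antimycin and 645 to 651 CPM with vehicle), and SLC7A11 and ATF5 lie lower with antimycin.

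ATF4 acts on DNA as a dimer at a composite element whose core resembles the letters TGATGNAA. Those letters were searched on both strands in the 250 bases before each gene's start in the RefSeq promoter table (GRCh38.p14). They occurred in 1104 of 35116 promoters (3.14%), in 308 of 12411 tested genes that matched the table (2.48%) and in 8 of 36 matched genes of the ISR list (22.2%). The list is made of ATF4 targets, so its higher share is not independent of the element. A match is a description of letters and not a binding site. A match did not go with a rise in every case: of the 8 genes, CHAC1, ATF3, ASNS, CEBPG, JDP2 and AARS1 rose, while GARS1 and FGF21 did not pass. In the whole list 32 of 45 genes rose, with or without a match. The promoters of 4 of the genes that rose, described above, are shown 5′ to 3′ on the gene's strand, with the matched letters in capitals. They are CHAC1 (chr15:40953221-40953470, plus strand, match starting at -209 and read on the opposite strand), ATF3 (chr1:212565157-212565406, plus strand, at -191), ASNS (chr7:97872409-97872658, minus strand, at -68) and CEBPG (chr19:33373863-33374112, plus strand, at -42).
CHAC1: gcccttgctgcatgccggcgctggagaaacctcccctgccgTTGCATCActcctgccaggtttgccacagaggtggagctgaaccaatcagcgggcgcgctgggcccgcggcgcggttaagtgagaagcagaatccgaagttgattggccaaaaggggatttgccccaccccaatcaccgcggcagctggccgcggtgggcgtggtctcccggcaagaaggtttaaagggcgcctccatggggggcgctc
ATF3: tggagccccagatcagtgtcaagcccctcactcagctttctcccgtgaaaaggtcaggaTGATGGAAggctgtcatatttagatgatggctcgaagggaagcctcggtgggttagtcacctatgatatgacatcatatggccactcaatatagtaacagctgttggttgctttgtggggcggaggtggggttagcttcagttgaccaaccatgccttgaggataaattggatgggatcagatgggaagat
ASNS: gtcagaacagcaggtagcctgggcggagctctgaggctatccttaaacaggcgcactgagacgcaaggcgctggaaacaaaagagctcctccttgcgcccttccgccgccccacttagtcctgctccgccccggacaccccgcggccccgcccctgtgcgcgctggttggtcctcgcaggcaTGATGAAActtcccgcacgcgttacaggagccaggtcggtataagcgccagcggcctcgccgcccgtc
CEBPG: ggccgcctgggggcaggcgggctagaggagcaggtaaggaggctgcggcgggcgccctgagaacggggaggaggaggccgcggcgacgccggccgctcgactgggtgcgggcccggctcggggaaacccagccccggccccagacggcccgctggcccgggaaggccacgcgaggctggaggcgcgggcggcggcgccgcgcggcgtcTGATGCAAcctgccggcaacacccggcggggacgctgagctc

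The next comparisons set the response of F137S cells beside that of the other lines, which share no library with it. The 3 differences tested share the libraries of F137S cells. KO vector cells, which have the same genotype label and no cDNA, called 8541 genes (51.0%), and 7143 genes were called in the same direction in both lines (83.3% of the F137S calls and 83.6% of the KO vector calls), with 0 in opposite directions. Across 12770 genes with a mean log2 CPM of at least 1, the log2 changes had a Pearson correlation of 0.913, a description over genes of 1 cell type that are not independent. The test of the difference of the 2 responses, F137S minus KO vector, called 0 of 16739 genes (0%) by edgeR's quasi-likelihood test, with a smallest adjusted p of 0.9998. At an unadjusted p under 0.05 there were 711 genes (4.25%), and DESeq2's Wald test called 0. The 95% interval of the difference lay within 0.5 log2 units of 0 for 11499 of the 12770 genes (90.0%), and its median half-width was 0.132. The 2 responses were thus not shown to differ, and for most well-measured genes a difference over 0.5 log2 units lay outside the interval.

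For CHAC1, KO vector cells had 7.53, 7.48, 7.21 and 8.98 CPM with antimycin and 1.75, 1.85, 2.27 and 2.42 CPM with vehicle. Their log2 change of 1.91 compares with 1.70 in F137S cells, a difference of -0.21 (95% interval -0.56 to 0.14). ATF3 differed by -0.10 (-0.22 to 0.02), SESN2 by 0.04 (-0.05 to 0.13), DDIT3 by 0.04 (-0.15 to 0.22) and ATF4 by 0.00 (-0.04 to 0.05). Of the 45 ISR list genes, 38 had an interval within 0.5 log2 units of 0. The estimates were higher in F137S cells for 25 and lower for 20. Without adjustment, the interval excluded 0 for 4 genes, above it for TRIB3 and below it for VLDLR, SLC38A2 and WARS1. F137S cells called 32 ISR genes higher and 3 lower, and KO vector cells 30 and 3, where 26.4% of all tested genes were called higher and 24.7% lower in KO vector cells. The list's median difference was 0.00. SLC25A12 RNA itself was far apart in the 2 lines, as given above.

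WT vector cells, whose own response called 8680 genes (51.9%), had higher log2 changes than F137S cells at most ISR genes. The test of F137S minus WT vector called 249 of 16739 genes (1.49%), 120 higher (0.717%) and 129 lower (0.771%), and 2000 at an unadjusted p under 0.05 (11.9%). At least 2-fold were 17 (0.102%), 6 higher (0.0358%) and 11 lower (0.0657%). The split depended on the processing: with no filter on low counts 32.3% of the calls were higher, and without the libraries labelled SLC25A12-WT 28.6%, against 48.2% here. The share was 42.4% with DESeq2's size factors and 43.9% with DESeq2's Wald test. With single libraries left out it lay between 39.2% and 49.8%. A replicate block gave 48.9%, a fit of the compared groups alone 48.8% and halved counts 50%. Of the 45 ISR list genes, 0 were called higher and 26 lower, and the median difference was -0.19. The estimate was lower in F137S cells for 41 of 45. Across all genes the median difference was 0.01.

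CHAC1 showed the largest such difference. WT vector cells had 17.9, 18.5, 15.4 and 16.8 CPM with antimycin and 2.35, 1.33, 2.1 and 1.82 CPM with vehicle, so that all 4 antimycin libraries lay above those of F137S cells. The log2 change was 1.70 in F137S cells against 3.17 in WT vector cells, a difference of -1.47 ± 0.17 (adjusted p = 1.3e-08). NUPR1 differed by -1.27 ± 0.23 (adjusted p = 4.1e-04), SLC6A9 by -0.74 ± 0.08 (adjusted p = 7.3e-10) and JDP2 by -0.79 ± 0.13 (adjusted p = 1.9e-05). For SLC6A9 the antimycin level was 20.2 ± 1.5 CPM in F137S cells and 34.9 ± 0.87 CPM in WT vector cells, and the vehicle level 12.5 ± 0.53 and 13 ± 0.87 CPM (SD, n = 4 each), so the levels were close with vehicle and apart with antimycin. ATF4 RNA rose by 0.07 in F137S cells and by 0.35 in WT vector cells, a difference of -0.27 ± 0.02 (adjusted p = 5.8e-14). Its vehicle level was 648 ± 2.3 CPM in F137S cells and 600 ± 5.3 CPM in WT vector cells, and its antimycin level 683 ± 6.3 and 764 ± 9.1 CPM.

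SESN2 showed another shape. Its antimycin level was 164 ± 7.2 CPM in F137S cells and 142 ± 5.4 CPM in WT vector cells, but its vehicle level was also higher, at 92.6 ± 1.8 against 62.5 ± 2.2 CPM. The difference of response was -0.37 ± 0.05 (adjusted p = 1.2e-07). SLC7A11 was also higher in F137S cells in both groups, with 71.6 ± 3.2 against 57.3 ± 1.9 CPM under antimycin and 101 ± 4.2 against 60.7 ± 1.0 CPM under vehicle. Unlike SESN2 it fell, by 0.50 in F137S cells, so its difference of -0.41 ± 0.05 (adjusted p = 1.7e-09) is a larger fall there. PSPH, GARS1, SLC7A1, STC2 and XPOT, which did not pass in F137S cells, had log2 changes of 0.38, 0.24, 0.20, 0.35 and 0.15 in WT vector cells. Each of these 5 differences passed, with adjusted p between 6.3e-11 for STC2 and 5.3e-06 for XPOT. DDIT3 differed by -0.19 ± 0.09 and ASNS by -0.23 ± 0.20, and neither passed (adjusted p = 0.41 and 0.73). The pseudogene ASNSP1, with which ASNS reads may be split, differed by -1.13 and passed, so the ASNS difference is uncertain. ATF5 fell by 0.37 in both lines.

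The libraries labelled SLC25A12-WT, whose own response called 8760 genes (52.3%), stood close to WT vector cells in these values. Since their SLC25A12 RNA goes against the label, the next counts compare F137S cells with these libraries and not with cells known to carry a wild-type cDNA. F137S minus labelled SLC25A12-WT called 215 genes (1.28%), 108 higher (0.645%) and 107 lower (0.639%), with 1866 at an unadjusted p under 0.05 (11.1%). At least 2-fold were 10 (0.0597%), 2 higher (0.0119%) and 8 lower (0.0478%). The share of higher calls was 50.2%, but 40.2% with DESeq2's size factors, 39.7% with DESeq2's Wald test, 31.5% with no filter and 36.2% in a fit of the compared groups alone. Of the 45 ISR list genes, 0 were called higher and 24 lower, with a median difference of -0.21. CHAC1 differed by -1.68 (adjusted p = 3.8e-10), ATF3 by -0.34 (adjusted p = 5.1e-05) and ATF4 by -0.28 (adjusted p = 1.4e-14). NUPR1 did not pass here (-0.54, adjusted p = 0.31).

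F137S cells that also carry dMTS-DELE1 had DELE1 at 6087 ± 56 CPM with antimycin and 5344 ± 85 CPM with vehicle, against 51.0 ± 1.6 and 45.9 ± 2.2 CPM in F137S cells. Their antimycin response called 5847 genes (34.9%), of which 4776 were called in the same direction in F137S cells (81.7% of theirs and 55.7% of the F137S calls) and 62 in the opposite direction. Of the 45 ISR list genes, 32 rose and 4 fell in these cells (17.6% and 17.3% of all tested genes did), against 32 and 3 in F137S cells, with a median log2 change of 0.14 against 0.26. CHAC1 was at 24.0 CPM with antimycin and 18.3 CPM with vehicle, a log2 change of 0.40 against 1.70 in F137S cells. SESN2 was at 309 and 265 CPM, with a log2 change of 0.23 against 0.82, and SLC6A9 at 28.4 and 28.0 CPM, with 0.02 against 0.69. The difference between these 2 responses was not tested here.

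**Figure D2:**
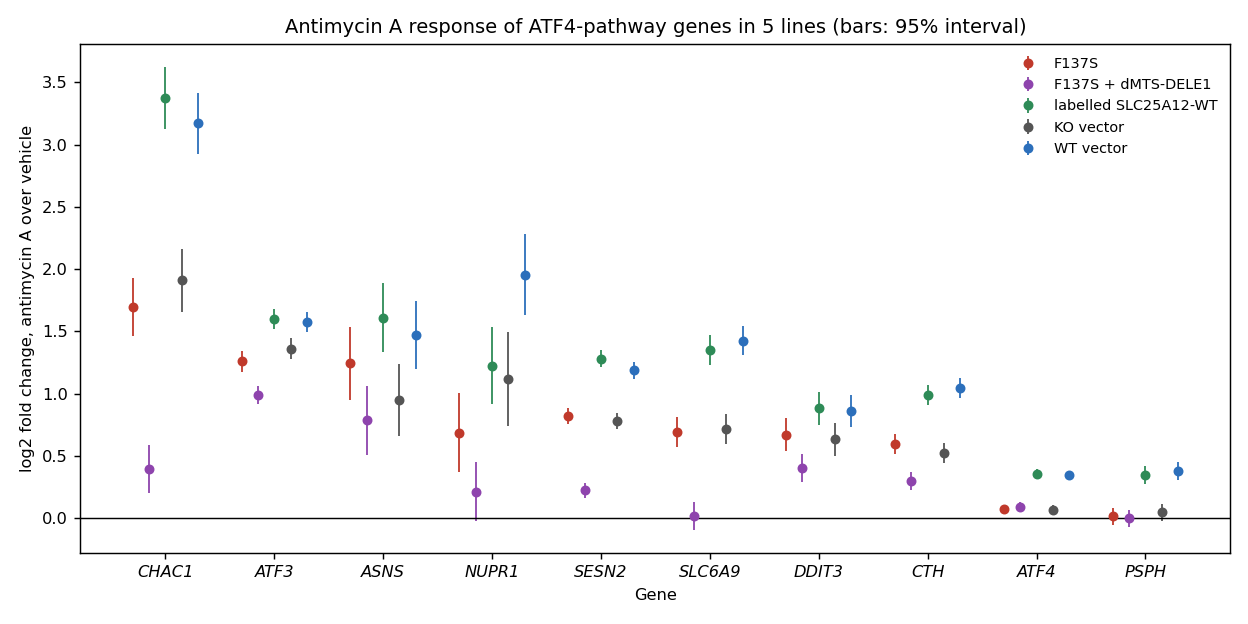
Log2 fold change of antimycin over vehicle (points) with its 95% interval (bars) for 10 ATF4-pathway genes in the 5 lines, 4 libraries a group. F137S and KO vector cells lie beside each other for most genes, and below the labelled SLC25A12-WT and WT vector cells for CHAC1 (1.70 and 1.91, against 3.38 and 3.17).

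**Figure D3:**
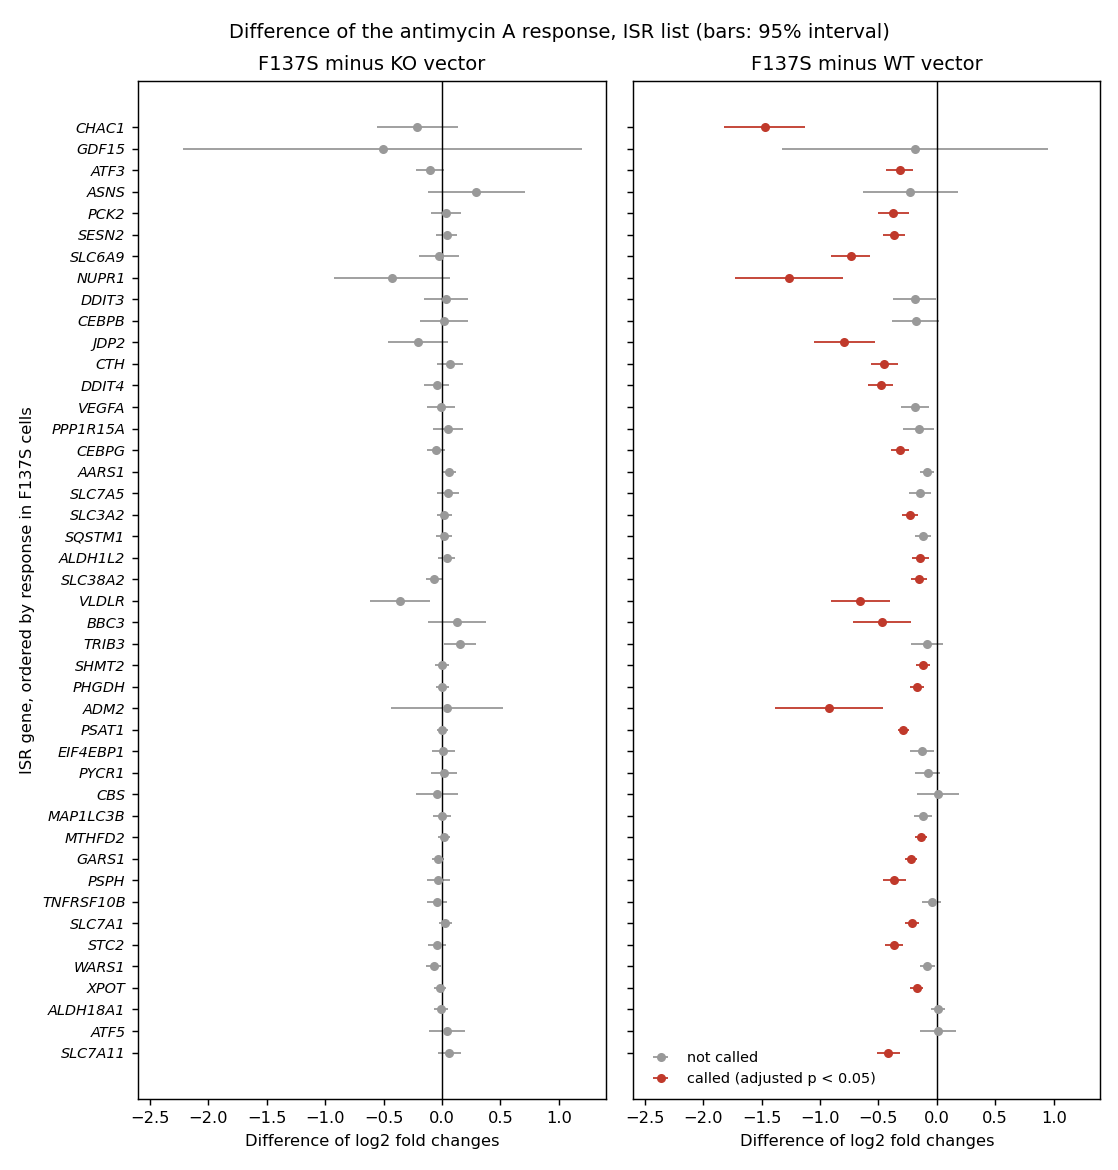
Difference of the log2 fold changes, F137S minus KO vector (left) and F137S minus WT vector (right), with 95% intervals for 44 genes of the ISR list (FGF21, with 6 counts over the antimycin and 5 over the vehicle libraries of F137S cells, is left out). None of the left-hand differences was called, and 26 of the right-hand ones were, all below 0.

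**Figure D4:**
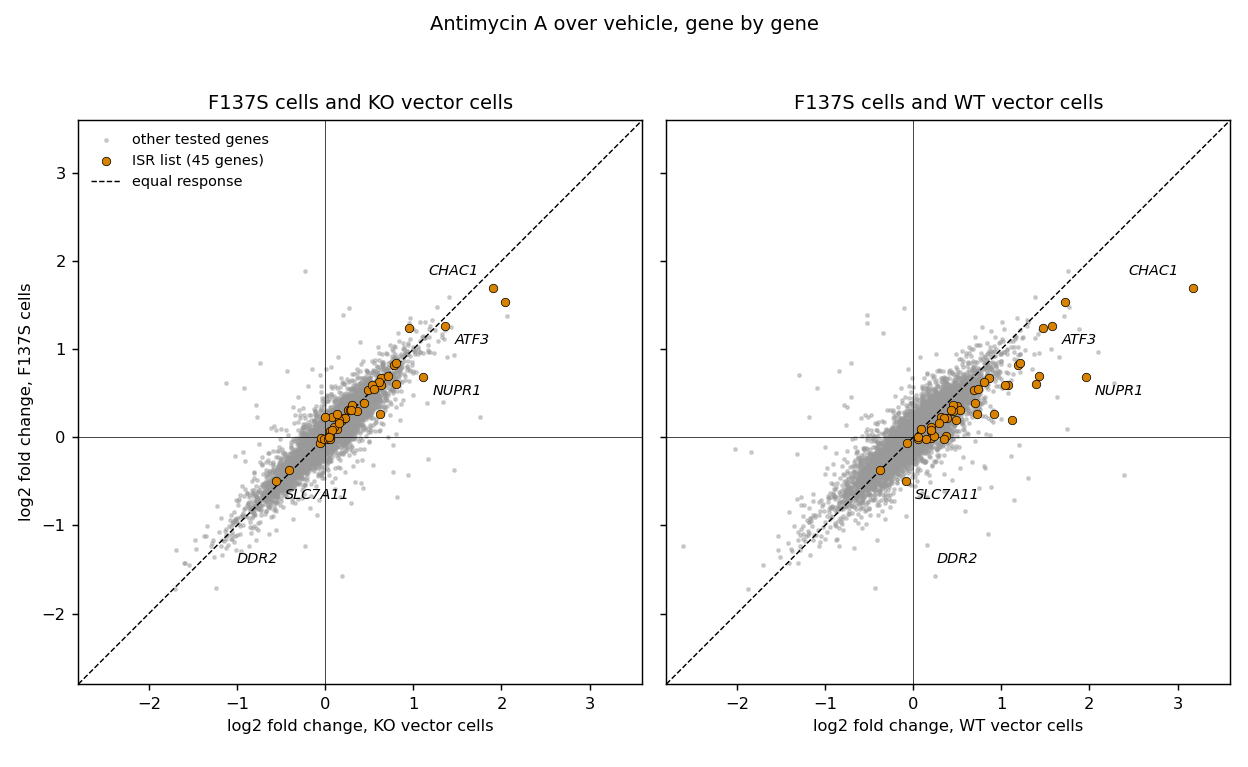
Log2 fold change of antimycin over vehicle in F137S cells (vertical axis) against KO vector cells (left) and WT vector cells (right) for 12770 genes with a mean log2 CPM of at least 1 and the 45 ISR list genes (orange). The ISR genes follow the line of equal response on the left and lie mostly below it on the right.

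Protein folding genes of the endoplasmic reticulum moved a little upward in F137S cells. Of 26 tested genes, 12 rose and 5 fell (46.2% and 19.2%, against 26.3% and 24.9% of all tested genes), with a median log2 change of 0.06. The membrane protein gene WFS1 rose by 0.36 ± 0.04, the folding factor gene CRELD2 by 0.28 ± 0.04, the disulfide isomerase gene PDIA4 by 0.22 ± 0.02 and the chaperone gene HYOU1 by 0.12 ± 0.02. DNAJB9, a co-chaperone gene under IRE1, fell by 0.25 (SE 0.05). In WT vector cells 5 of the 26 rose and 12 fell (25.5% and 26.4% of all tested genes did). Between the 2 responses 8 genes differed, all with a higher log2 change in F137S cells (0.717% of all tested genes were). CRELD2 stood at 60.7 ± 2.6 CPM with antimycin and 50.1 ± 3.3 CPM with vehicle in F137S cells, and at 75.3 ± 1.7 and 75.1 ± 4.0 CPM in WT vector cells. The difference of response was 0.27 ± 0.06 (adjusted p = 0.0025). HYOU1 differed by 0.19 ± 0.03 (adjusted p = 5.8e-07), HERPUD1, which serves the degradation of misfolded proteins, by 0.22 ± 0.04 (adjusted p = 3.4e-04) and SDF2L1 by 0.33 ± 0.06 (adjusted p = 4.0e-04). The response of SDF2L1 within F137S cells, 0.09, did not pass (adjusted p = 0.11, and 0.010 without vehicle library 4). In KO vector cells 11 of the 26 rose and 4 fell, and 0 of the 26 differences from F137S cells were called.

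Cytosolic heat shock genes fell more often than they rose, 11 (52.4%) against 4 of 21 tested, with a median of -0.11. Among all tested genes 24.9% fell and 26.3% rose. HSPA1B, an inducible HSP70 gene, was at 39.0, 42.4, 37.7 and 41.2 CPM with antimycin and at 62.4, 49.8, 61.4 and 57 CPM with vehicle. It fell by 0.53 (SE 0.08, adjusted p = 1.0e-06) without overlap, and its near-identical neighbour HSPA1A fell by 0.48 (SE 0.10), so that reads may be split between them. DNAJA1, an HSP40 gene, fell by 0.34 (SE 0.02), while DNAJB4, of the same family, rose by 0.43 ± 0.04.

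Nuclear genes for mitochondrial proteins shifted by small amounts. The shares below compare with 26.3% of all tested genes that rose and 24.9% that fell. Complex I genes were called higher in 17 and lower in 1 of 37, with a median of 0.10, and the assembly and subunit genes of complex III, the target of antimycin A, in 8 and 2 of 15, also with a median of 0.10. Complexes II, IV and V had 18 higher and 1 lower of 29. NDUFA7 rose by 0.31 ± 0.06 and NDUFB10 by 0.22 ± 0.04, while NDUFA9 fell by 0.07 (SE 0.03, adjusted p = 0.047), a call that was lost without antimycin library 1, 3 or 4 or vehicle library 1, 2 or 3 (adjusted p between 0.063 and 0.50), with DESeq2's Wald test (0.057) and when only the compared groups were fitted (0.061). The complex III assembly gene UQCC2 rose by 0.20 ± 0.05, and UQCRFS1, the Rieske iron-sulfur subunit, fell by 0.14 (SE 0.03). Of 76 mitochondrial ribosome genes, 10 rose (13.2%) and 23 fell (30.3%, near the share of all tested genes). Their median of -0.04 was -0.009 without antimycin library 3, and also nearer 0 without antimycin library 1 (-0.024) or vehicle library 1 (-0.021) or 2 (-0.018). Of 25 import genes, 2 rose and 9 fell (36.0%). The import median of -0.02 turned to 0.01 without vehicle library 2, and lay between -0.022 and -0.0071 without any other 1 library of F137S cells. TOMM70, an import receptor, fell by 0.33 (SE 0.02) and TIMM23, the inner membrane channel, by 0.27 (SE 0.03). Of 17 mitochondrial tRNA synthetase genes, 6 fell (35.3%) and 1 rose, led by FARS2, which fell by 0.56 (SE 0.08), and NARS2, which fell by 0.38 (SE 0.04). Among 21 mitochondrial chaperone and protease genes, 3 rose (14.3%) and 5 fell (23.8%, near the share of all tested genes), and 2 and 3 without antimycin library 3 or vehicle library 2. The protease gene LONP1 rose by 0.23 ± 0.03 and GRPEL1, a co-chaperone of mitochondrial HSP70, fell by 0.34 (SE 0.03). Of the members of these 7 lists, 0 were called in the difference from KO vector cells and 2 in that from WT vector cells.

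In metabolism, 10 of 20 amino acid transporter genes rose and 6 fell, with a median of 0.11, where 26.3% of all tested genes rose and 24.9% fell. SLC43A1, a transporter of large neutral amino acids, rose by 0.53 ± 0.06. Serine and one-carbon genes split 7 higher and 4 lower of 21. AMT, of the glycine cleavage system, rose by 0.80 ± 0.10, while SLC25A32, the mitochondrial folate carrier gene, fell by 0.38 (SE 0.03). Cytosolic tRNA synthetase genes had 4 higher (20%) and 5 lower (25%, near the share of all tested genes) of 20 in F137S cells. In WT vector cells 12 rose and 5 fell, where 25.5% of all tested genes rose and 26.4% fell. The test of the difference called 6 of these 20 genes, all lower in F137S cells, against 0.771% of all tested genes called lower. The glucose-regulated arrestin genes were divided. TXNIP, a brake on glucose uptake, was at 18.5, 16.8, 18.1 and 18.9 CPM with antimycin and at 32.9, 33.3, 33.8 and 31.5 CPM with vehicle, and fell by 0.86 (SE 0.05). ARRDC4 fell by 0.84 (SE 0.04), whereas ARRDC3 was at 48.3, 48.4, 49.5 and 52.4 CPM with antimycin and at 24.7, 24.7, 25.5 and 25.7 CPM with vehicle, a rise of 0.98 ± 0.05. The groups of all 3 genes were far apart. NRF2 target genes rose in 12 and fell in 4 of 20. The ferritin light chain gene FTL rose by 0.32 ± 0.02 and the heme oxygenase gene HMOX1 fell by 0.65 (SE 0.04). HMOX1 fell by 0.34 in WT vector cells, and the difference of -0.31 ± 0.06 passed (adjusted p = 7.7e-04). Of 31 cholesterol and fatty acid genes 11 rose and 5 fell, among them TM7SF2, a sterol reductase gene, which rose by 0.45 ± 0.06, and INSIG1, a feedback regulator of sterol synthesis, which fell by 0.31 (SE 0.03).

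Genes of mitosis fell as a group. Of 35 tested, 30 fell and 1 rose, with a median of -0.25, against 24.9% of all tested genes that fell and 26.3% that rose. KIF23, a motor of cytokinesis, was at 105, 114, 108 and 105 CPM with antimycin and at 176, 165, 175 and 171 CPM with vehicle, and fell by 0.67 (SE 0.03, adjusted p = 1.2e-33) with no overlap. The centromere histone gene CENPA fell by 0.60 (SE 0.05), the kinase gene AURKA by 0.59 (SE 0.03) and the cyclin gene CCNA2 by 0.49 (SE 0.03). CDC25B, a phosphatase that opens mitosis, was the exception, with a rise of 0.06 ± 0.03 (adjusted p = 0.046), lost without antimycin library 3 or 4 or vehicle library 1 or 3 (adjusted p between 0.071 and 0.12), with no filter (0.13), without the libraries labelled SLC25A12-WT (0.082) and in a fit of the compared groups alone (0.099). In WT vector cells 30 fell and 1 rose (26.4% and 25.5% of all tested genes did), with a median of -0.32. The median difference was 0.06. The test of the difference called 3 of the 35, all with a higher log2 change in F137S cells (0.717% of all tested genes were). They were AURKA (0.16, adjusted p = 0.033), UBE2C (0.15, adjusted p = 0.016) and DLGAP5 (0.19, adjusted p = 0.0039). AURKA fell in F137S cells, so its difference is a smaller fall there. Of 42 genes of DNA replication and the G1/S step, 20 rose (47.6%) and 8 fell. The transcription factor gene E2F1 was at 123, 117, 131 and 127 CPM with antimycin and at 80.8, 86.7, 82.2 and 83.9 CPM with vehicle, a rise of 0.58 ± 0.04 (adjusted p = 4.1e-21), and E2F2 rose by 0.50 ± 0.04. RFC3, a subunit of the clamp loader, fell by 0.64 (SE 0.03). Of 19 nucleotide synthesis genes, 3 rose and 10 fell (15.8% and 52.6%). Cell number and cell cycle phase were not measured in these files.

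Immediate early genes rose in 17 and fell in 4 of 31 tested, with a median of 0.34. Over all tested genes 26.3% rose and 24.9% fell, to be read beside this list and the p53 list below. JUN, a subunit of the AP-1 factor, was at 312, 299, 306 and 314 CPM with antimycin and at 161, 148, 147 and 163 CPM with vehicle, a rise of 0.99 ± 0.03 (adjusted p = 6.1e-26). JUND rose by 1.18 ± 0.10. MYC, a growth-promoting factor, was at 52.5, 54.3, 53.3 and 56.3 CPM with antimycin and at 109, 107, 104 and 107 CPM with vehicle, and fell by 0.98 (SE 0.04, adjusted p = 1.4e-25). The groups of JUN and of MYC were far apart and tight. JUN rose by 1.27 in WT vector cells, and the difference of -0.28 ± 0.04 passed (adjusted p = 7.9e-05). DUSP8, a phosphatase of MAP kinases, was uneven, at 1.39, 4.17, 3.99 and 1.61 CPM with antimycin and 0.603, 0.565, 0.761 and 0.787 CPM with vehicle, with libraries 2 and 3 high within the antimycin group. Genes listed as p53 targets rose in 15 and fell in 3 of 24, with a median of 0.17. GADD45B rose by 0.93 ± 0.09 and BTG2, an antiproliferative gene, by 0.70 ± 0.05, while MDM2, which degrades p53, fell by 0.12 (SE 0.02). SESN2 is also on this list.

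**Figure D5:**
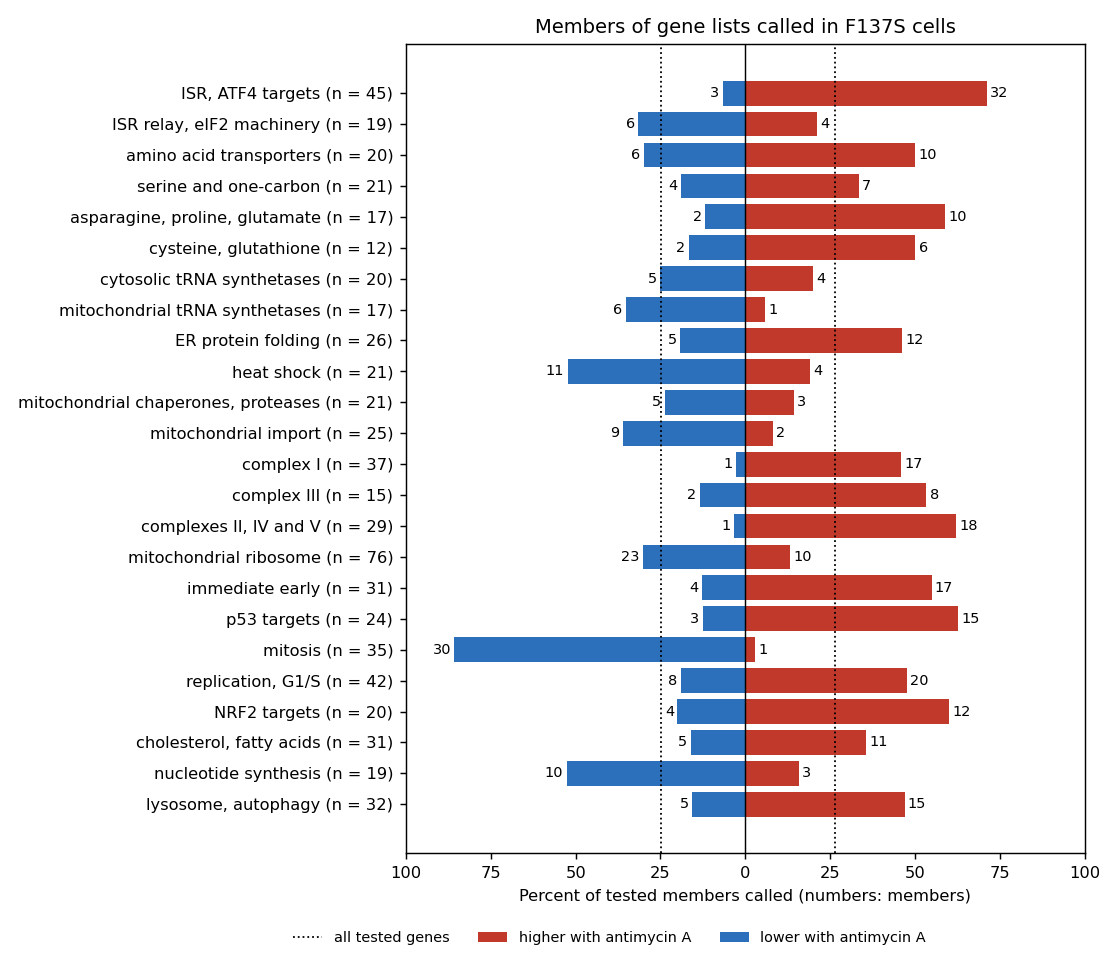
Percent of the tested members of 24 gene lists called higher (right, red) or lower (left, blue) with antimycin in F137S cells, with the number of genes beside each bar; dotted lines mark all tested genes (26.3% higher and 24.9% lower). The ISR targets extend furthest to the right, with 32 of 45, and mitosis furthest to the left, with 30 of 35.

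Small nucleolar RNAs (snoRNAs) guide the chemical modification of ribosomal RNA and mostly lie in introns of host genes. Those called in F137S cells were all lower. The class was singled out after its values were seen. Of 539 with a row, 209 passed the filter, of which 0 rose, 116 fell (55.5%) and 93 did not pass the test. The median log2 change was -0.57. Over all tested genes 26.3% rose and 24.9% fell. Falls were called in both the C/D box class (77 of 127) and the H/ACA class (39 of 82). SNORA73B was at 1.64, 1.15, 1.63 and 1.37 CPM with antimycin and at 4.00, 5.21, 5.01 and 4.82 CPM with vehicle, and fell by 1.72 (SE 0.14, adjusted p = 1.5e-17) with no overlap. SNORD14A fell by 1.29 (SE 0.16). The same class fell in the other lines. KO vector cells had 135 lower and 2 higher, and WT vector cells 120 and 1. In dMTS-DELE1 cells 92 were lower and 0 higher, and in the libraries labelled SLC25A12-WT 124 and 0. In the same order, 24.7%, 26.4%, 17.3% and 26.4% of all tested genes fell. In the differences of F137S cells from KO vector or WT vector cells, 0 members were called. The libraries were made from poly(A) RNA, in which most mature snoRNAs are poorly held, and whether these reads come from snoRNAs or host transcripts was not tested.

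A few genes off the stress lists also differed from WT vector cells. DDR2, a collagen receptor gene, was at 3.15, 2.83, 2.46 and 2.89 CPM with antimycin and at 7.01, 6.81, 6.18 and 6.49 CPM with vehicle in F137S cells. WT vector cells had 39.4, 46.1, 39.4 and 41.3 CPM with antimycin and 36.1, 39.0, 38.6 and 35.1 CPM with vehicle. DDR2 thus fell by 1.22 (SE 0.09) in F137S cells, where it was already low, and had a log2 difference of 0.16 in WT vector cells, and the responses differed by -1.38 ± 0.10 (adjusted p = 2.9e-17). In KO vector cells it was equally low, at 2.73, 2.97, 2.97 and 2.91 CPM with antimycin and 6.04, 5.78, 6.46 and 6.61 CPM with vehicle. CRIP2 rose by 0.45 ± 0.13 in F137S cells and by 1.64 in WT vector cells, and ULBP1, a ligand of natural killer cell receptors, by 1.23 ± 0.10 and 1.88. Both differences passed (adjusted p = 2.6e-05 and 0.0074). In the other direction, the transcription factor gene FOXO4 had a log2 difference of 0.05 ± 0.05 in F137S cells and of -0.39 in WT vector cells (difference 0.44 ± 0.07, adjusted p = 1.6e-05). HOXA13, a patterning gene, fell by 0.38 in F137S cells and by 0.75 in WT vector cells (difference 0.37 ± 0.07, adjusted p = 6.5e-04). None of these genes was called in the difference between F137S and KO vector cells.

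Some calls of large size rest on scattered libraries. NDE1 was at 3.70, 3.92, 2.59 and 6.18 CPM with antimycin and at 19.1, 11.4, 10.0 and 13.4 CPM with vehicle, with a log2 change of -1.72 ± 0.67 (adjusted p = 0.032). DECR2, a peroxisomal reductase gene, was at 7.07, 6.00, 8.53 and 7.91 CPM with antimycin and at 1.90, 3.86, 3.55 and 1.92 CPM with vehicle, with a log2 change of 1.39 ± 0.56 (adjusted p = 0.037). In both, the groups do not overlap but the SE is large. The call of NDE1 was lost without antimycin library 1, 2 or 3 or vehicle library 1 (adjusted p between 0.064 and 0.087), and that of DECR2 without antimycin library 1, 3 or 4 or vehicle library 1 or 4 (adjusted p between 0.0504 and 0.0938) or with no filter (0.055).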

How the data were processed

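Poly(A) RNA was sequenced in 40 libraries. The authors deposited whole-number read counts per gene in 1 table. Reads were aligned to hg38 with HISAT2 2.1.0 and counted with featureCounts 2.0.6, per the submitters' processing notes. The settings, annotation and strand mode were not given in the sources used here, so overlapping and antisense genes cannot be told apart. Among counts of 1 to 20, 55.1% to 58.7% were even, so a fit on halved counts was added. Genes were filtered with filterByExpr, scaled by TMM and tested in 1 edgeR 4.0.16 quasi-likelihood fit over all 40 libraries (R 4.3.3, limma 3.58.1), with 1 coefficient per group and Benjamini-Hochberg adjustment over 16739 genes (call at 0.05). The common biological coefficient of variation was 0.0509. CPM used TMM-scaled totals. Intervals are 95%. DESeq2 1.42.0 was an alternative, as were other filters, samples and a replicate block. The script was tested on simulated data.

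The genes, the 33 gene lists and the tests were chosen with earlier results of these data known. Named were SLC25A12, ATF4 and other fixed genes, the 14 largest changes each way among called genes without overlap and at least 1 log2 CPM, the 6 largest differences each way, and up to 4 called members of each list with up to 2 that moved against it. DDIT4, JDP2, CEBPG, VLDLR, PSAT1, PHGDH, GARS1, PSPH, SLC7A1, STC2, XPOT, HERPUD1, SDF2L1, HYOU1, UBE2C, DLGAP5, SLC39A7 and FAM83H were named after their values were seen. Lists are described by counts and medians, with no set test. Some items are not reported here.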

Additional observations from a re-analysis of the deposited data

Results flagged for a closer look

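A library was marked where its gap to the nearest library of its group, divided by the group's range, passed Dixon's 95% critical value for 4 libraries. Of 218 groups checked (109 genes of F137S cells, 2 groups each), 10 were marked (4.59%), where chance marks about 1 in 20. ASNS stood at 2.00 CPM in vehicle library 3, above the 1.48 to 1.52 CPM of the other 3 (ratio 0.916). AMT stood at 6.11 CPM in vehicle library 4, above the 5.36 to 5.46 CPM of the other 3 (ratio 0.866). AGTR1 stood at 2.44 CPM in vehicle library 1, above the 1.76 to 1.84 CPM of the other 3 (ratio 0.890). CCNA2 stood at 198 CPM in vehicle library 3, above the 179.7 to 181.5 CPM of the other 3 (ratio 0.903). INSIG1 stood at 249 CPM in vehicle library 4, above the 236 to 238 CPM of the other 3 (ratio 0.873). SLC25A32 stood at 82.8 CPM in vehicle library 3, above the 75.9 to 77.0 CPM of the other 3 (ratio 0.847). TRIM66 stood at 31.6 CPM in vehicle library 2, above the 28.8 CPM of each of the other 3 (ratio 0.981). TRIM66 stood at 18.8 CPM in antimycin library 2, above the 16.5 to 16.9 CPM of the other 3 (ratio 0.8292). ASNSP1 stood at 5.62 CPM in antimycin library 3, above the 4.38 to 4.59 CPM of the other 3 (ratio 0.830). DNAJA1 stood at 365 CPM in antimycin library 3, below the 374 to 375 CPM of the other 3 (ratio 0.831). Leaving out any of these libraries changed no call of the antimycin response of these genes.

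The other marked results are genes whose antimycin response in F137S cells differed from that of another line by the test of the difference (edgeR's quasi-likelihood test with Benjamini-Hochberg adjustment over all genes). There were 42 such genes among the 109 against WT vector cells, 37 against the libraries labelled SLC25A12-WT and 0 against KO vector cells. Some of the 109 were named because this test called them or after their values were seen, so these counts are not rates. Over all 16739 tested genes the test called 249 (1.49%), 215 (1.28%) and 0 (0%). The values below are differences of log2 fold changes.

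Against WT vector cells, the difference in the ISR list genes was -1.47 for CHAC1, -1.27 for NUPR1, -0.79 for JDP2, -0.74 for SLC6A9, -0.65 for VLDLR, -0.93 for ADM2, -0.48 for DDIT4, -0.45 for CTH, -0.41 for SLC7A11, -0.37 for PCK2, -0.37 for SESN2, -0.36 for STC2, -0.36 for PSPH, -0.32 for ATF3, -0.32 for CEBPG, -0.29 for PSAT1, -0.22 for GARS1, -0.21 for SLC7A1, -0.17 for XPOT and -0.17 for PHGDH. ATF4 RNA differed by -0.27. In folding genes it was 0.33 for SDF2L1, 0.27 for CRELD2, 0.22 for HERPUD1, 0.19 for HYOU1, 0.12 for PDIA4 and 0.13 for DNAJA1. Off these lists it was -1.13 for ASNSP1, -0.31 for HMOX1, -0.28 for JUN, -0.65 for ULBP1, -1.38 for DDR2, -1.18 for CRIP2 and -0.56 for BAIAP3, and 0.16 for AURKA, 0.15 for UBE2C, 0.19 for DLGAP5, 0.44 for FOXO4, 0.46 for TRIM66, 0.81 for RGS20 and 0.37 for HOXA13. SLC25A12 differed by 0.38.

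Against the libraries labelled SLC25A12-WT, the difference in the ISR list genes was -1.68 for CHAC1, -0.86 for JDP2, -0.66 for SLC6A9, -0.55 for VLDLR, -0.36 for DDIT4, -0.40 for CTH, -0.42 for SLC7A11, -0.32 for PCK2, -0.46 for SESN2, -0.24 for STC2, -0.33 for PSPH, -0.34 for ATF3, -0.30 for CEBPG, -0.24 for PSAT1, -0.23 for GARS1, -0.24 for SLC7A1, -0.13 for XPOT and -0.20 for PHGDH, and ATF4 differed by -0.28. In folding genes it was 0.29 for SDF2L1, 0.15 for HERPUD1, 0.16 for HYOU1, 0.12 for PDIA4 and 0.16 for DNAJA1. Off these lists it was -0.92 for ASNSP1, -0.26 for TXNIP, -0.31 for HMOX1, -0.38 for JUN, -0.23 for MYC, -1.31 for DDR2, -0.89 for CRIP2 and -0.91 for BAIAP3, and 0.23 for DLGAP5, 0.45 for FOXO4, 0.43 for TRIM66 and 0.45 for HOXA13. SLC25A12 differed by 0.42.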

How the results depend on the processing

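Under the alternatives tried, the calls of the antimycin response of F137S cells numbered 8586 with DESeq2's size factors, 8629 with DESeq2's Wald test, 8508 with all counts halved, 8477 without the libraries labelled SLC25A12-WT and 8199 with no filter or in a fit of the compared groups alone, against 8574. Leaving out 1 library at a time gave 7996 to 8289 calls. Asking for at least 2-fold left 469. For F137S minus KO vector, single libraries left out gave 0 to 0 calls, the fit without the labelled libraries 1 (SLC39A7, -1.42, adjusted p = 0.041) and the compared groups alone 1 (FAM83H, -1.03, adjusted p = 0.011). F137S minus WT vector gave 189 to 275 calls with single libraries left out and 17 of at least 2-fold. F137S minus labelled SLC25A12-WT gave 170 to 208 and 10. Why these counts moved was not tested.

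The replicate numbers did not pair the libraries: in F137S cells the deviations of same-numbered libraries correlated at -0.023, -0.003, -0.067 and 0.051. With the replicate block the response had 8522 calls, F137S minus KO vector 0, F137S minus WT vector 231 and F137S minus labelled SLC25A12-WT 199.

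Of the single-gene values recomputed, 3330 kept their direction and side of the threshold, 59 lost and 14 gained a call, and 5 changed sign, all in genes that did not pass. SLC7A1 (-0.022 to 0.0063 with single libraries left out) came to 0.0063 without antimycin library 2, 0.0053 without antimycin library 4 and 0.0037 without vehicle library 3, and STC2 (-0.025 to 0.015) to 0.0068 without antimycin library 4 and 0.015 without vehicle library 4. The ISR list had 33 to 35 called members and a median of 0.23 to 0.31 across the alternatives. The medians of all tested genes moved by less than 0.1. Genes near 1 CPM, such as GDF15, carry few counts, and their folds are the least precise.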

Other observations

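The other gene lists of F137S cells are given as counts of called members, to be read beside the 26.3% of all tested genes that rose and the 24.9% that fell. Of 30 genes of the tricarboxylic acid cycle and pyruvate entry, 13 rose and 6 fell, with a median log2 change of 0.06. Of 7 genes of the malate-aspartate shuttle, 3 rose and 1 fell. Genes of asparagine, proline and glutamate metabolism rose in 10 and fell in 2 of 17, and those of cysteine and glutathione in 6 and 2 of 12. Of 30 glycolysis and hypoxia genes, 8 rose and 6 fell (26.7% higher, near the share of all tested genes). Of 32 lysosome and autophagy genes, 15 rose and 5 fell. BCL2 family genes rose in 5 (31.2%) and fell in 2 of 16, and in 3 and 1 without vehicle library 1. A list of 8 genes, with TXNIP, its arrestin relatives and others such as MLXIPL, had 3 that rose and 3 that fell. Histone genes had 11 of 17 members tested, of which 0 rose and 5 fell (45.5%). Without antimycin library 3, vehicle library 1 or vehicle library 4, 3 histone genes fell.

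The epsilon subunit gene of ATP synthase, ATP5F1E, went against its list. It was at 2.84, 3.08, 2.55 and 2.54 CPM with antimycin and at 5.43, 3.89, 5.26 and 3.78 CPM with vehicle, and fell by 0.74 (SE 0.14, edgeR adjusted p = 4.6e-06), while 18 of the 29 genes of complexes II, IV and V rose. The G protein subunit gene GNG13 fell by 1.28 (SE 0.10).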
